A study of Mus musculus with 4 samples.

Results

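The Wnt pathway genes described here are 37 of the 45803 gene symbols in the deposited RNA-seq table of newborn mouse epidermal keratinocytes. They were taken by symbol from a list of 11 ligand genes (9 Wnt genes with Wls and Porcn), 11 receptor genes (8 Frizzled genes with Lrp5, Lrp6 and Kremen1), 8 intracellular transducers and 7 target genes. The rule uses symbols and no expression value, though the list was drawn up with results of these data known. All 37 were in the table, and 36 of them reached the level needed for testing, which was at least 1 FPKM (fragments per kilobase of transcript, scaled to library depth) in at least 2 of the 4 libraries. The exception was Fzd4.

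Conditional knockout (cKO) mice carried K14Cre and 2 floxed Mettl14 alleles, K14Cre,Mettl14F/F in the labels. Control mice carried the same Cre with 1 floxed allele, K14Cre,Mettl14F/+. Both groups were sampled at postnatal day 0 without treatment, with 2 libraries each, numbered 1 and 2. Cre thus acted in the controls as well, and in both genotypes only in cells that use the keratin 14 promoter or descend from such cells. Mettl14 encodes a partner of the METTL3 methyltransferase, which writes m6A into messenger RNA. The labels do not say whether the libraries of a group came from separate animals or from pools, so the p-values measure the spread between libraries, which may be technical. In bulk RNA, fewer cells of a type and less RNA per cell cannot be told apart.

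Wnt proteins are secreted, lipid-modified ligands that bind Frizzled receptors together with LRP5 or LRP6. Without ligand, a complex built on axin and APC lets GSK3 mark β-catenin for destruction. With ligand, Dishevelled proteins are recruited to the receptor, β-catenin escapes and enters the nucleus with TCF/LEF factors, and genes such as Axin2 are transcribed. In skin the pathway is known for starting hair follicle formation and for sustaining basal keratinocytes and follicle stem cells, and several of its targets are inhibitors that feed back on it.

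Mettl14 itself, at chr3:123368297-123386108 (GRCm38), had 5.89 and 3.79 FPKM in cKO libraries 1 and 2, against 7.00 and 6.40 FPKM in control libraries 1 and 2. The groups did not overlap, but the difference of -0.42 ± 0.26 on the log2(FPKM + 1) scale (SE) did not pass (limma, adjusted p = 0.959). The sum covers the whole gene; the sources used here do not name the exons that Cre removes. The libraries stood apart more by number than by genotype: log2 values over the tested genes correlated at 0.956 between the cKO libraries and 0.966 between the control libraries, but at 0.977 between cKO 1 and control 1 and 0.975 between cKO 2 and control 2. The low values implied 16829589 and 25668517 reads or fragments in the cKO libraries and 17332743 and 23407972 in the control libraries, so that 1 read in a transcript of 3000 nt is worth 0.0130 to 0.0198 FPKM. Differences within each number, library 1 with library 1 and 2 with 2, are therefore given beside the pooled ones.

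Basal keratinocyte markers and most suprabasal ones were abundant in every library, but Krt1 was listed at 0 in all 4, and Krt2 had 2.42 and 4.03 FPKM in cKO and 0.86 and 0.52 FPKM in control. The basal list, led by Krt14 and Krt5, summed to 2453 and 3828 FPKM in cKO libraries and 3836 and 4950 FPKM in control libraries. All 7 genes were lower in cKO within both numbers, 3 of them without overlap, though none passed adjustment. Of all tested genes, 37.6% were lower within both numbers and 16.6% lower without overlap. The suprabasal list, led by Krt10 and Flg, summed to 15735 and 8319 FPKM in cKO and 19818 and 8104 FPKM in control. Of its 6 genes, 2 were higher in cKO within both numbers, 1 lower and 3 mixed, with a median difference of 0.02. Genes of other cell types were detected. Leukocyte markers, led by Cd74 and Cd3g, summed to 171 and 258 FPKM in cKO and 303 and 365 FPKM in control. Melanocyte markers, led by Dct and Pmel, summed to 426 and 435 FPKM in cKO and 555 and 473 FPKM in control. Of the 8 melanocyte genes, 7 were lower in cKO within both numbers, 3 of them without overlap, and 1 was mixed. Their median difference was -0.35, and none passed adjustment. Dermal fibroblast markers, led by Dcn and Col3a1, summed to 90.5 and 96.9 FPKM in cKO and 122 and 118 FPKM in control. Dcn alone made up 37.5% and 41.6% of the fibroblast sum in cKO and 45.7% and 57.8% in control. Of the 9 tested fibroblast genes, 1 was higher in cKO within both numbers, 3 lower and 5 mixed, with a median difference of 0.03. Of the follicle lists, hair shaft and inner root sheath genes, led by Krt71 and Krt25, summed to 229 and 689 FPKM in cKO and 199 and 499 FPKM in control, placode and matrix genes, led by Ptch1 and Lhx2, to 95.2 and 147 FPKM in cKO and 112 and 135 FPKM in control, and sebaceous genes, led by Scd1 and Mgst1, to 268 and 443 FPKM in cKO and 248 and 355 FPKM in control. Of the 11 tested hair shaft and inner root sheath genes, 8 were higher in cKO within both numbers and 3 mixed (median difference 0.36). Of the 5 tested sebaceous genes, 4 were higher and 1 mixed (median difference 0.21). All genes of these 2 lists overlapped between groups and none passed adjustment, and 31.8% of all tested genes were higher within both numbers. The 6 endothelial markers, led by Pecam1 and Kdr, summed to 0.90 and 2.18 FPKM in cKO and 1.28 and 0.88 FPKM in control, and none was high enough to test.

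The question put to the Wnt genes was whether loss of Mettl14 in keratinocytes went with a different level of any step of the pathway. None of the 36 tested members passed at an adjusted p of 0.05 (limma with Benjamini-Hochberg adjustment over 13817 genes), none had an unadjusted p under 0.05, and the smallest adjusted p among them was 0.959. The same fit called 0.0% of all tested genes, and 4.96% of them (686) had an unadjusted p under 0.05. All 36 members had a 95% interval that included 0. For 26 of the 36 that interval lay within 1 log2 unit of 0, which leaves room for smaller differences in either direction. This fit leaves out the library number. With the number as a block, no member passed adjustment (limma), beside 6.51% of all tested genes. In that fit 6 members had an unadjusted p under 0.05. The largest of these, 0.0429 (limma) for Rnf43, had an adjusted p of 0.177. Benjamini-Hochberg adjustment gives such a pair only where p-values that small are common among all tested genes. Their share was not counted, so the 6 are not read as an excess. Members ranged from a mean of 0.30 FPKM (Fzd4) to 357 FPKM (Ctnnb1) over the 4 libraries.

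The median difference over the 36 members, cKO minus control on the log2(FPKM + 1) scale, was -0.10, beside -0.03 over all tested genes. By class it was -0.16 for ligands, 0.05 for receptors (-0.005 with every column scaled to the same sum), -0.13 for transducers and -0.12 for targets. These medians rest on single libraries. Without cKO library 1 the ligand median was 0.13, the transducer median 0.02 and the target median 0.04, without control library 2 the ligand and transducer medians were 0.04 and 0.03, and the receptor median was -0.05 without cKO library 2, -0.13 without control library 1, 0.17 without cKO library 1 and 0.19 without control library 2. Within the libraries numbered 1 the class medians were -0.21 for ligands, 0.11 for receptors, -0.04 for transducers and -0.23 for targets, and within those numbered 2 they were 0.09, -0.02, -0.16 and -0.08 in the same order. Summed FPKM differed little: ligands came to 181 and 229 in cKO and 188 and 220 in control, receptors to 168 and 202 in cKO and 162 and 197 in control, transducers to 484.0 and 493.9 in cKO and 493.7 and 525.8 in control, and targets to 65.9 and 83.8 in cKO and 73.0 and 92.7 in control. In all 4 classes the cKO and control sums overlapped.

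**Figure D1:**
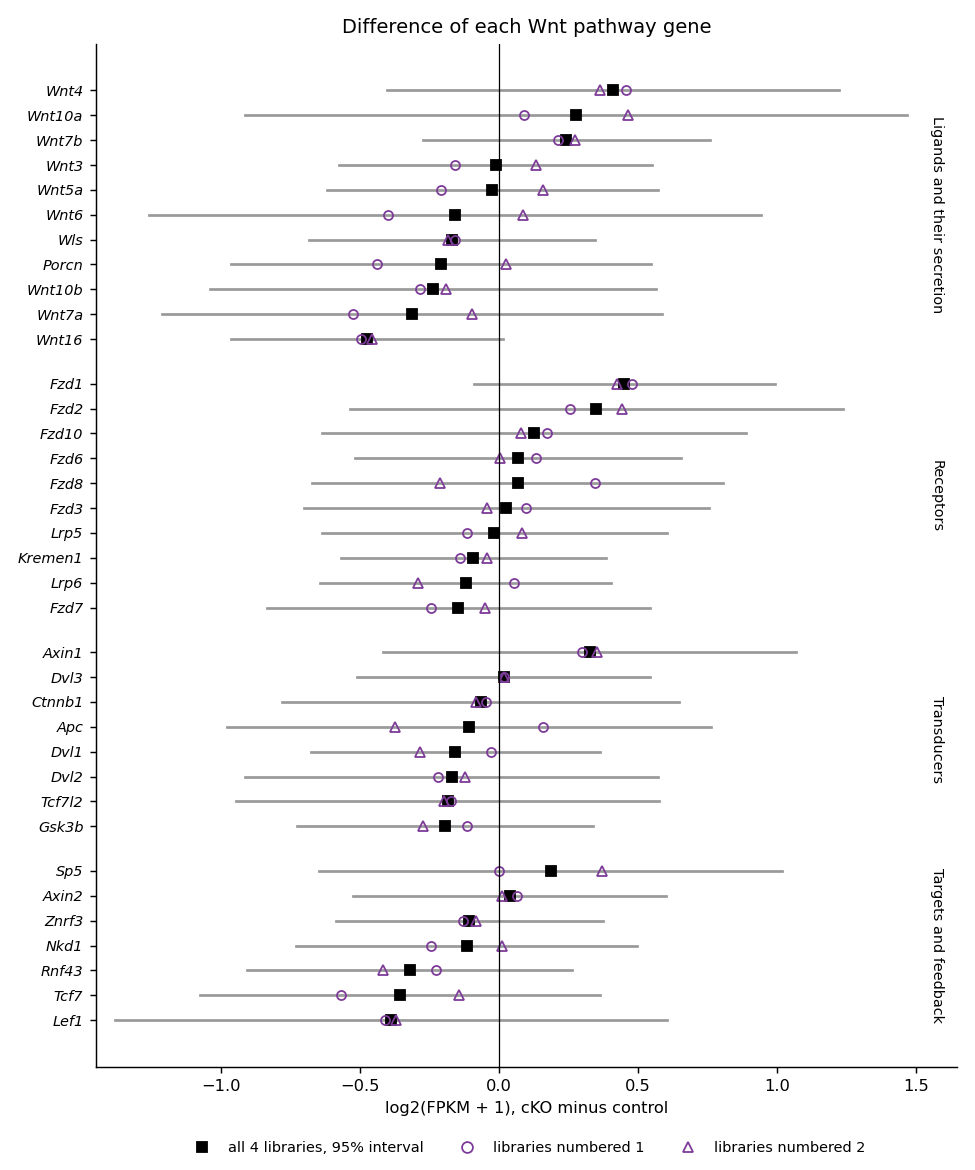
Difference in log2(FPKM + 1), cKO minus control, for the 36 tested members, ordered by class. Points show the limma estimate with its 95% interval and small marks the differences within library numbers 1 and 2, and all 36 intervals include 0.

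In 7 of the 36 members both cKO libraries lay on one side of both control libraries. That was the case for 32.8% of all tested genes (4538), so the members' share was not above the background. Wnt7b and Fzd1 were the 2 members with higher cKO libraries, where 16.2% of tested genes were higher, and Wnt16, Wls, Kremen1, Znrf3 and Rnf43 the 5 with lower cKO libraries, where 16.6% were lower. Within both numbers 10 members were higher in cKO and 15 lower, with 11 of mixed sign, beside 31.8% of tested genes higher and 37.6% lower. The split of Wnt7b, Fzd1, Wnt16 and Rnf43 was the same under median-ratio scaling and with equal column sums. Znrf3 overlapped under both scalings, and Wls and Kremen1 overlapped with equal column sums. Conversely, Tcf7 was lower in cKO without overlap under both scalings, Ctnnb1 under median-ratio scaling and Nkd1 with equal column sums. The share of all tested genes without overlap was not counted under these scalings.

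METTL3 and METTL14 are known to methylate adenosines inside short motifs, of which GGACT is a common form, often near stop codons. Methylation was not measured in these libraries, so the motif is given only as a property of the transcripts. For the 7 non-overlapping members, and for Lef1 and Axin2 among the targets, the GGACT nearest the stop codon of the most abundant protein-coding transcript is printed with 10 bases on either side, read from the GENCODE M21 transcripts on GRCm38, with the motif in capitals.
Wnt7b: catcagatgaGGACTcagtactaac
Wnt16: taatgtctgtGGACTgccgctgcca
Wls: tacagtatctGGACTacagatgttg
Fzd1: tgggggagaaGGACTgcggcgcacc
Kremen1: gagaccttagGGACTgtcgtcagcc
Znrf3: gctacactgaGGACTattcagtgag
Rnf43: cattccaagtGGACTtttgacagcc
Lef1: tgaaggaagtGGACTtttcggtatt
Axin2: gcctagggagGGACTggcgcctggg

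The Wnt7b window, chr15:85536959-85536983 on the minus strand, lies in the 3′ UTR, 418 nt past the stop codon, and the Axin2 window, chr11:108949534-108949558 on the plus strand, lies 151 nt past it. Coding windows were found before the stop codon by 110 nt in Rnf43 (chr11:87732307-87732331, plus), 133 nt in Kremen1 (chr11:5195074-5195098, minus), 397 nt in Znrf3 (chr11:5281155-5281179, minus), 439 nt in Wnt16 (chr6:22297780-22297804, plus), 518 nt in Wls (chr3:159911785-159911809, plus) and 1060 nt in the single exon of Fzd1 (chr5:4756700-4756724, minus). Lef1 had a single GGACT, in the 5′ UTR of its first exon (chr3:131110892-131110916, plus). Counts ran from 1 in Lef1 and 2 each in Wnt16 and Wls to 7 in Rnf43, 8 in Kremen1 and 9 in Znrf3. Over the 36 members with a tested level the median density was 1.21 GGACT per kb and 97.2% had at least 1, beside 1.06 per kb and 90.7% over 12202 tested genes, whose transcripts were shorter (median 2820 nt, against 3520 nt for the members).

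Among the 9 Wnt genes, Wnt7b and Wnt4 stood highest in both genotypes. Wnt7b (chr15:85535437-85582473), a ligand that epidermal keratinocytes are known to make, had 39.55 and 45.99 FPKM in cKO and 34.01 and 37.91 FPKM in control. Both cKO libraries lay above both controls, by 0.21 within number 1 and 0.27 within number 2. The pooled difference was 0.24 ± 0.21 (SE) and did not pass. Its main transcript, Wnt7b-201, held 90.7% of the gene and overlapped on its own, with 35.07 and 43.65 FPKM in cKO and 27.59 and 36.56 FPKM in control. Wnt4 (chr4:137277489-137299726), known for its part in kidney and gonad development and made by epidermis too, had 27.67 and 42.25 FPKM in cKO and 19.87 and 32.59 FPKM in control. Each cKO library exceeded the control of its own number, by 0.46 and 0.36, but the library numbered 2 was the higher one in both genotypes and the groups overlapped. The difference was 0.41 ± 0.33 and did not pass.

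Wnt16 (chr6:22288227-22298522), a ligand known in mice for its role in cortical bone, had the lowest difference of all members. It had 7.19 and 7.08 FPKM in cKO and 10.55 and 10.08 FPKM in control, so the libraries of a group lay close together and the groups were apart. The mean was 7.14 ± 0.08 FPKM in cKO and 10.3 ± 0.33 FPKM in control (SD, n = 2 each). Turned back from the log2 scale, the pooled difference was a ratio of 0.72 in FPKM + 1, cKO over control. Within the numbers the difference was -0.50 and -0.46. The pooled value of -0.48 ± 0.20 had a 95% interval of -0.97 to 0.01 and did not pass (limma, unadjusted p = 0.055). Leaving out any 1 library moved it only between -0.51 and -0.45. Of its transcripts, Wnt16-201 held 67.6% and was lower in both cKO libraries, with 4.83 and 5.80 FPKM in cKO and 6.90 and 6.06 FPKM in control.

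The other Wnt genes varied more between numbers than between genotypes. Wnt3 had 8.74 and 11.75 FPKM in cKO and 9.86 and 10.61 FPKM in control, a difference of -0.01 ± 0.23. Wnt10b, one of the earliest ligands of hair placodes, had 8.59 and 14.26 FPKM in cKO and 10.68 and 16.43 FPKM in control. Its difference of -0.24 ± 0.32 was smaller than the gap between the libraries of a group. Wnt10a, whose loss in humans is known to cause ectodermal dysplasia, had 4.72 and 12.34 FPKM in cKO and 4.38 and 8.67 FPKM in control, and its 0.28 ± 0.48 had the widest error of all members. Wnt6, the chromosomal neighbour of Wnt10a, had 5.59 and 13.86 FPKM in cKO and 7.70 and 13.00 FPKM in control, with a difference of -0.16 ± 0.45. In Wnt10a, Wnt10b and Wnt6 the libraries numbered 2 were above those numbered 1 in both genotypes. Wnt5a, best known for signalling without β-catenin, lay between 2.30 and 3.09 FPKM in all 4 libraries, and Wnt7a between 0.75 and 2.37 FPKM.

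Wls and Porcn act on every Wnt protein: PORCN attaches the lipid, and WLS carries the modified ligand to the cell surface. Wls (chr3:159839672-159938664) was the most abundant gene of the class, with 70.78 and 71.82 FPKM in cKO and 79.01 and 81.65 FPKM in control. The groups were apart, with differences of -0.16 within number 1 and -0.18 within number 2, and the pooled -0.17 ± 0.21 did not pass. Between 34.4% and 45.7% of its value in a library sat in transcripts not annotated as protein coding, and the protein-coding sum alone overlapped between groups. Porcn had 5.56 and 4.48 FPKM in cKO and 7.89 and 4.39 FPKM in control, with the highest value in control 1 and no separation of the groups (-0.21 ± 0.31).

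**Figure D2:**
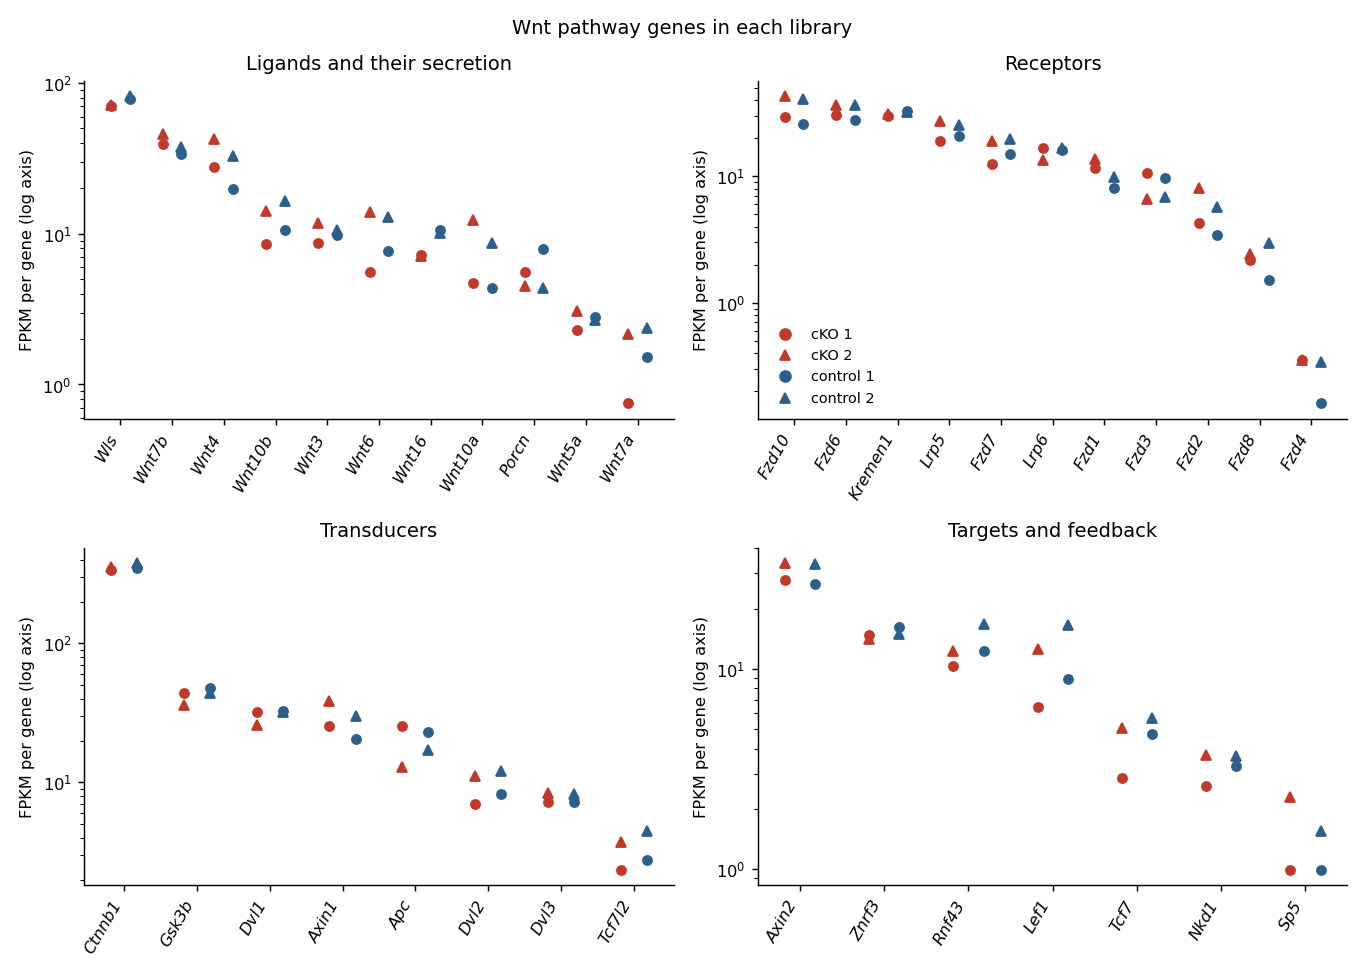
FPKM per library on a log axis for the 37 members by class, with cKO left of control and symbols for library numbers 1 and 2. Wnt16 and Fzd1 show groups that are apart, while in Wnt6, Wnt10a and Lef1 the 2 libraries of each genotype are far from each other.

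Frizzled genes are mostly single-exon genes that encode the receptors' Wnt-binding domain and membrane span in a single stretch. Fzd1 (chr5:4753839-4758035) had the highest difference of all members. It had 11.62 and 13.63 FPKM in cKO and 8.06 and 9.91 FPKM in control, with both cKO libraries above both controls. Its mean was 12.6 ± 1.42 FPKM in cKO and 8.99 ± 1.31 FPKM in control (SD, n = 2 each). The difference was 0.45 ± 0.22, with 0.48 and 0.42 within the numbers and a 95% interval of -0.09 to 0.99, and did not pass (limma, unadjusted p = 0.087). Leaving out 1 library at a time gave values between 0.32 and 0.58.

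Fzd10 and Fzd6 were the most abundant receptors. Fzd10 had 29.45 and 42.98 FPKM in cKO and 26.03 and 40.62 FPKM in control, and Fzd6, which is known to orient hair follicles in mouse skin, had 30.67 and 36.97 FPKM in cKO and 27.90 and 36.87 FPKM in control. For both genes the value followed the library number, and the differences were 0.13 ± 0.31 and 0.07 ± 0.24. Fzd7 had 12.52 and 19.13 FPKM in cKO and 15.00 and 19.85 FPKM in control, a difference of -0.15 ± 0.28. Fzd2 had 4.27 and 8.11 FPKM in cKO and 3.41 and 5.70 FPKM in control, higher in cKO within both numbers (0.26 and 0.44) but overlapping between groups (0.35 ± 0.36). Fzd3, a relative of Fzd6 with a role in planar cell polarity, ran the other way between numbers, with 10.55 and 6.67 FPKM in cKO and 9.80 and 6.90 FPKM in control (0.03 ± 0.30). Fzd8 lay between 1.51 and 2.96 FPKM in the 4 libraries and Fzd4 between 0.16 and 0.35 FPKM, so Fzd4 was too low to compare.

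The co-receptors that Frizzleds need for β-catenin signalling differed by less than the spread between libraries. Lrp5 had 19.21 and 27.24 FPKM in cKO and 20.91 and 25.65 FPKM in control (-0.02 ± 0.25). Lrp6 had 16.87 and 13.40 FPKM in cKO and 16.22 and 16.63 FPKM in control (-0.12 ± 0.21), the lowest value being that of cKO 2. Kremen1, which binds Dickkopf proteins and takes LRP6 off the cell surface, had 29.81 and 31.07 FPKM in cKO and 32.99 and 32.05 FPKM in control. Its groups did not overlap, but the gap was small, with a difference of -0.09 ± 0.19 (-0.14 and -0.04 within the numbers).

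Ctnnb1, which encodes β-catenin and serves cell adhesion as well as Wnt signalling, was the most abundant member. It had 340.26 and 357.07 FPKM in cKO and 351.61 and 378.19 FPKM in control, a difference of -0.06 ± 0.29 with groups that overlapped on the deposited scale. It alone made up 70.3% and 72.3% of the transducers' summed FPKM in cKO and 71.2% and 71.9% in control. Its leading transcript, Ctnnb1-214, had 167.23 and 178.94 FPKM in cKO and 187.26 and 180.25 FPKM in control, while Ctnnb1-201 had 157.23 and 170.53 FPKM in cKO and 150.15 and 187.54 FPKM in control. The cKO values of the first transcript were below both controls and those of the second lay between them.

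Of the transducers that form the destruction complex (Axin1, Apc and Gsk3b), Axin1 was higher in cKO within both numbers, Gsk3b was lower and Apc was mixed. Axin1 had 25.44 and 38.59 FPKM in cKO and 20.48 and 29.99 FPKM in control, with differences of 0.30 and 0.35 within the numbers, overlapping groups and a pooled 0.33 ± 0.30 that did not pass. Both main Axin1 transcripts were apart between groups when taken singly: Axin1-203 had 12.02 and 20.23 FPKM in cKO and 9.76 and 10.95 FPKM in control, and Axin1-201 had 13.40 and 15.90 FPKM in cKO and 10.64 and 12.44 FPKM in control. The share of all transcripts without overlap was not counted. A further protein-coding form, Axin1-202, had 0.02 and 1.89 FPKM in cKO and 0.08 and 6.60 FPKM in control. It held 22.0% of the gene's value in control 2, where the main forms were thus a smaller part. Axin1-203 lacks an internal exon of Axin1-201 at chr17:26192516-26192623. Apc had 25.64 and 13.01 FPKM in cKO and 22.86 and 17.15 FPKM in control, with both libraries numbered 1 above those numbered 2 (-0.11 ± 0.35). Gsk3b had 43.97 and 35.99 FPKM in cKO and 47.74 and 43.67 FPKM in control (-0.19 ± 0.22), with overlapping groups.

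Dishevelled proteins pass the signal from Frizzled to axin. Dvl1 had 32.09 and 26.04 FPKM in cKO and 32.79 and 31.95 FPKM in control (-0.16 ± 0.21), the low value being that of cKO 2. Between 28.1% and 54.6% of the Dvl1 value lay in transcripts not annotated as protein coding, most in control 1, and the sum of its protein-coding transcripts gave a difference of the opposite sign, 0.12. Dvl2 had 7.00 and 11.07 FPKM in cKO and 8.31 and 12.14 FPKM in control (-0.17 ± 0.30), and Dvl3 had 7.28 and 8.40 FPKM in cKO and 7.18 and 8.29 FPKM in control (0.02 ± 0.21). Both followed the library number. Tcf7l2, a DNA-binding partner of β-catenin, lay between 2.34 and 4.45 FPKM in the 4 libraries.

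Axin2, the target most widely read as a measure of β-catenin signalling, was nearly level between genotypes. Axin2 (chr11:108920349-108950783) had 27.86 and 33.77 FPKM in cKO and 26.59 and 33.47 FPKM in control, or 30.8 ± 4.18 and 30.0 ± 4.86 FPKM (SD, n = 2 each). The 2 libraries of a number nearly coincided, with differences of 0.06 and 0.01. The pooled difference was 0.04 ± 0.23 with a 95% interval of -0.52 to 0.60, and it was -0.017 with every column scaled to the same sum. Axin2-201 had 18.68 and 18.35 FPKM in cKO and 17.48 and 20.31 FPKM in control, while the shorter Axin2-202 had 4.12 and 10.06 FPKM in cKO and 3.70 and 7.32 FPKM in control. In cKO the gap between the library numbers lay in Axin2-202, and in control in both transcripts.

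Znrf3 and Rnf43 encode related ubiquitin ligases that take Frizzled receptors off the cell surface, and both are induced by the pathway they restrain. Both were lower in the cKO libraries than in the controls, by small margins. Rnf43 (chr11:87662722-87735539) had 10.37 and 12.28 FPKM in cKO and 12.31 and 16.72 FPKM in control, so that cKO 2 and control 1 nearly met. The difference was -0.32 ± 0.24 and did not pass. Its most abundant transcript was Rnf43-206, a retained-intron form with 4.51 and 3.76 FPKM in cKO and 5.40 and 7.49 FPKM in control. The protein-coding Rnf43-201 had 2.56 and 4.63 FPKM in cKO and 3.51 and 8.14 FPKM in control and overlapped, as did the sum of the gene's protein-coding transcripts. Znrf3 (chr11:5276324-5444847) had 14.71 and 14.08 FPKM in cKO and 16.19 and 14.98 FPKM in control, a difference of -0.11 ± 0.19.

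Nkd1 encodes an inhibitor of Dishevelled and Sp5 a zinc-finger repressor of Wnt target genes. Nkd1 lay between 2.61 and 3.71 FPKM in the 4 libraries and Sp5 between 0.99 and 2.30 FPKM, with overlapping groups in both on the deposited scale.

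Lef1 and Tcf7 encode β-catenin's DNA-binding partners, and Lef1 marks hair placodes and the follicle matrix. Lef1 (chr3:131110471-131224356) had 6.49 and 12.61 FPKM in cKO and 8.94 and 16.58 FPKM in control. Each cKO library was below the control of its number, with log2 differences of -0.41 and -0.37, but cKO 2 was above control 1, so the groups overlapped. The difference was -0.39 ± 0.40 and did not pass, and it was 0.04 without cKO 1 and 0.02 without control 2. Tcf7, chosen here after its values were seen, had 2.86 and 5.05 FPKM in cKO and 4.72 and 5.68 FPKM in control, a difference of -0.36 ± 0.29 that did not pass (-0.57 and -0.14 within the numbers).

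Both factors are also made by T cells, whose genes were detected in these libraries. All 7 leukocyte markers were lower in cKO within both numbers, 6 of them without overlap, with a median difference of -0.78, though none passed adjustment. Of all tested genes, 37.6% were lower within both numbers and 16.6% lower without overlap. The T cell gene Cd3g had 18.28 and 21.04 FPKM in cKO and 38.96 and 37.80 FPKM in control, and Cd3e had 1.40 and 2.93 FPKM in cKO and 4.65 and 4.97 FPKM in control. Of the 10 placode and matrix markers, 2 were higher in cKO within both numbers (Dlx3 and Foxn1), 3 lower (Ptch1, Gli1 and Edar) and 5 mixed. Without overlap, Foxn1 was higher and Ptch1 lower, beside 16.2% of all tested genes higher and 16.6% lower. Ptch1, the most abundant of the list, had 33.09 and 37.73 FPKM in cKO and 40.24 and 41.09 FPKM in control. Lhx2 had 11.71 and 24.46 FPKM in cKO and 17.30 and 19.39 FPKM in control, and Shh had 3.22 and 7.15 FPKM in cKO and 5.17 and 5.87 FPKM in control. The part of leukocytes or of follicle cells in the Lef1 and Tcf7 values was not tested. Cd3e, Shh, Dlx3, Foxn1, Gli1, Krt1 and Krt2 were likewise chosen after their values were seen.

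**Figure D3:**
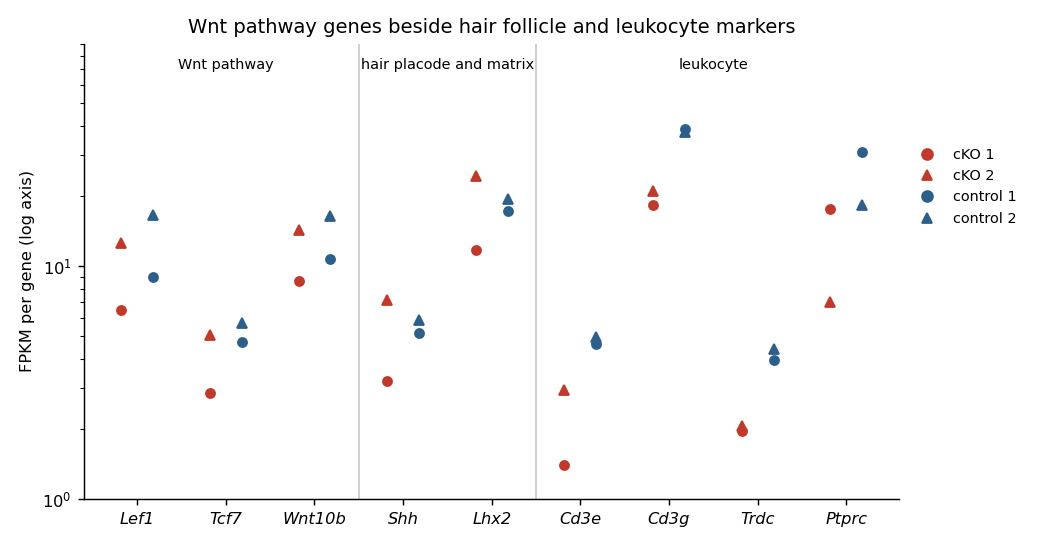
FPKM per library on a log axis of Lef1, Tcf7 and Wnt10b beside the placode and matrix genes Shh and Lhx2 and leukocyte genes, with cKO left of control. Cd3g, with 18.28 and 21.04 FPKM in cKO and 38.96 and 37.80 FPKM in control, separates the groups, while those of Lef1, Lhx2 and Shh overlap.

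Lef1 transcripts differed in how they split between groups. Lef1-201 had 3.44 and 7.21 FPKM in cKO and 3.37 and 8.89 FPKM in control and overlapped. Lef1-203 had 0.70 and 2.92 FPKM in cKO and 3.47 and 4.88 FPKM in control, below both controls in both cKO libraries. It made up 10.8% and 23.2% of the gene's value in cKO and 38.8% and 29.4% in control. The forms share 11 of 12 exons and differ in the first, so this split rests on reads of the first exon and the authors' assignment of the rest. The start codons, in capitals within 24 bases, are shown because they mark where the forms part.
Lef1-201: tacacagccgccgggATGccccaa
Lef1-203: accttctctgtcccgATGgcaggg

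Lef1-201 starts at chr3:131110471 with a first exon of 1208 nt that holds 207 coding nt, and its start codon window is chr3:131111457-131111480 on the plus strand. Lef1-203 starts at chr3:131112797 with a first exon of 24 nt, all of which is printed (chr3:131112797-131112820), and 9 coding nt in it. The amino-terminal end of LEF1 is known as the part that binds β-catenin. No test was run on single transcripts, and the share of all transcripts without overlap between groups was not counted.

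**Figure D4:**
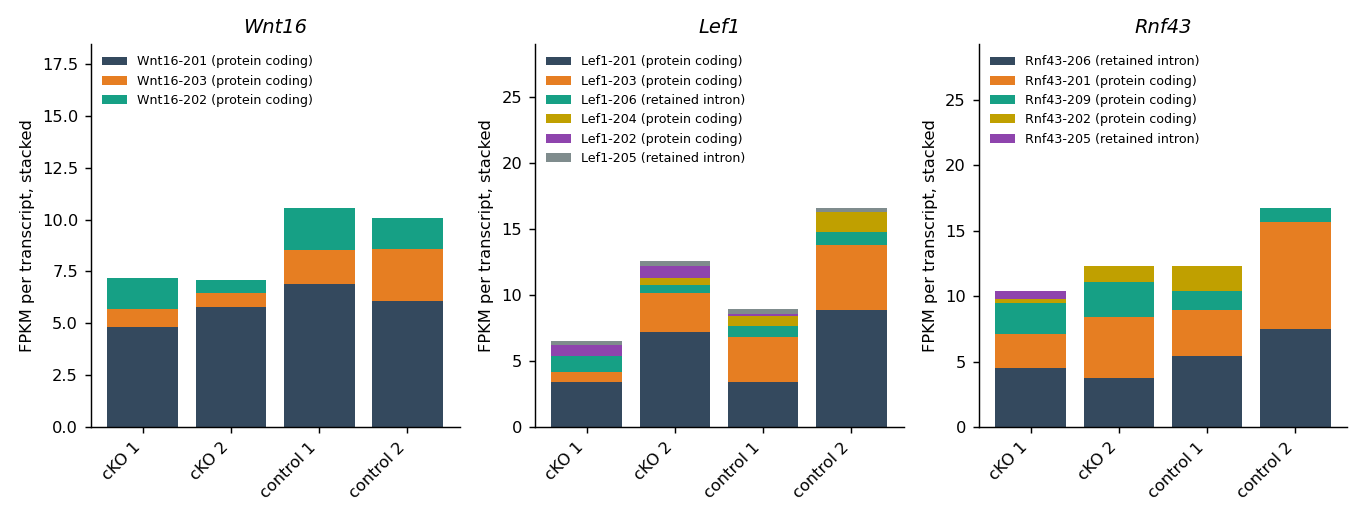
Stacked FPKM per transcript of Wnt16, Lef1 and Rnf43 in each library, with cKO left of control and each transcript's annotated kind in the legend. The segments of Wnt16-201, Wnt16-203, Lef1-203, Lef1-204 and Rnf43-206 are smaller in both cKO libraries than in both controls. Those of Lef1-202 and Rnf43-209 are larger.

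The 250 bases before and 50 after gene starts, from the RefSeq table on GRCm38.p6, covered 23 of the 37 members in 30 windows. They were searched on both strands for 4 cores bound by TCF/LEF factors: CTTTGAT (found in 3.73% of all 32851 windows), CTTTGAA (in 5.14%), CTTTGTT (in 5.85%) and CTTTGTA (in 3.63%). At least 1 of the 4 was found in 16.7% of the members' windows, beside 16.9% of all windows. The members with a match were Fzd7, Lef1, Sp5, Tcf7l2 and Wnt3. The Lef1 match lay in a window inside the gene (chr3:131156044-131156343), and the windows at its earlier starts held none. The Tcf7l2 match also lay in a window inside the gene (chr19:55895071-55895370), with none in the window at its earlier start. The Axin2 window held none of the 4 cores.

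The members varied more with the library number than with genotype. In 28 of 36 members the mean of the libraries numbered 2 was above that of the libraries numbered 1, beside 57.7% of all tested genes, and the median gap was 0.31 log2 units over the members, 0.62 over the 9 Wnt genes, 0.38 over the tested Frizzled genes and 0.08 over all tested genes. The widest gaps were those of Wnt10a (1.03), Wnt6 (0.93) and Lef1 (0.84). Hair shaft and inner root sheath markers had a median gap of 1.38 and placode and matrix markers of 0.56, while suprabasal markers had -0.68 and mitochondrial transcripts made up 2.90% and 1.14% of cKO 1 and 2 and 4.08% and 1.62% of control 1 and 2. The sources used here do not say what the number stands for, and the part of follicle content in the members' values was not tested.

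A wider list of 85 pathway genes, 84 of them in the table and 63 tested, was read from the same fit. None passed adjustment, and 2 had an unadjusted p under 0.05 (Amer1 and Vangl1), beside 4.96% of all tested genes. Without overlap 7 were higher and 11 lower in cKO, beside 16.2% and 16.6% of all tested genes, and the median difference was -0.06. The median gap between library numbers was 0.28. Values follow for the 2 genes with the smallest p in each sublist, among those with a mean of at least 1 FPKM.

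Of ligands and receptors outside the members, Wnt11 had 3.74 and 5.45 FPKM in cKO and 5.63 and 6.93 FPKM in control (-0.39 ± 0.26), and Wnt3a had 1.05 and 2.68 FPKM in cKO and 1.08 and 2.40 FPKM in control (0.05 ± 0.40). Ror1, a receptor for Wnt5a, had 5.03 and 4.25 FPKM in cKO and 6.17 and 5.86 FPKM in control (-0.32 ± 0.22), and the Wnt receptor Ryk had 41.97 and 55.05 FPKM in cKO and 50.50 and 63.23 FPKM in control (-0.23 ± 0.25). Wnt11 and Ror1 were lower in cKO without overlap, and Wnt3a and Ryk overlapped. Of the inhibitors, Sostdc1, which blocks both Wnt and BMP signals and limits follicle formation, had 81.59 and 82.66 FPKM in cKO and 64.16 and 64.30 FPKM in control (0.35 ± 0.21), and Kremen2 had 13.15 and 20.17 FPKM in cKO and 9.49 and 13.89 FPKM in control (0.47 ± 0.30). Sostdc1 was apart between groups with close libraries in each, and Kremen2 overlapped.

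Amer1, a scaffold of the destruction complex, had 3.31 and 2.62 FPKM in cKO and 5.51 and 6.62 FPKM in control. The difference of -0.83 ± 0.23 (limma, unadjusted p = 0.0126) did not pass adjustment. Tle4, a co-repressor that binds TCF/LEF factors, had 5.16 and 5.96 FPKM in cKO and 7.23 and 7.66 FPKM in control (-0.37 ± 0.21). Both were lower in cKO without overlap. Vangl1 and Vangl2, core proteins of planar cell polarity, were both higher in cKO without overlap. Vangl1 had 38.80 and 41.14 FPKM in cKO and 25.65 and 26.64 FPKM in control, a difference of 0.59 ± 0.19 (limma, unadjusted p = 0.0236) that did not pass adjustment. Vangl2 had 18.57 and 20.84 FPKM in cKO and 15.36 and 15.76 FPKM in control (0.32 ± 0.20). Among genes known as targets in other tissues, Edar, the placode's ectodysplasin receptor, had 6.04 and 11.46 FPKM in cKO and 9.34 and 11.99 FPKM in control (-0.31 ± 0.33), and the stem cell gene Lgr5 had 1.95 and 3.56 FPKM in cKO and 3.52 and 3.22 FPKM in control (-0.25 ± 0.29). Both overlapped.

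**Figure D5:**
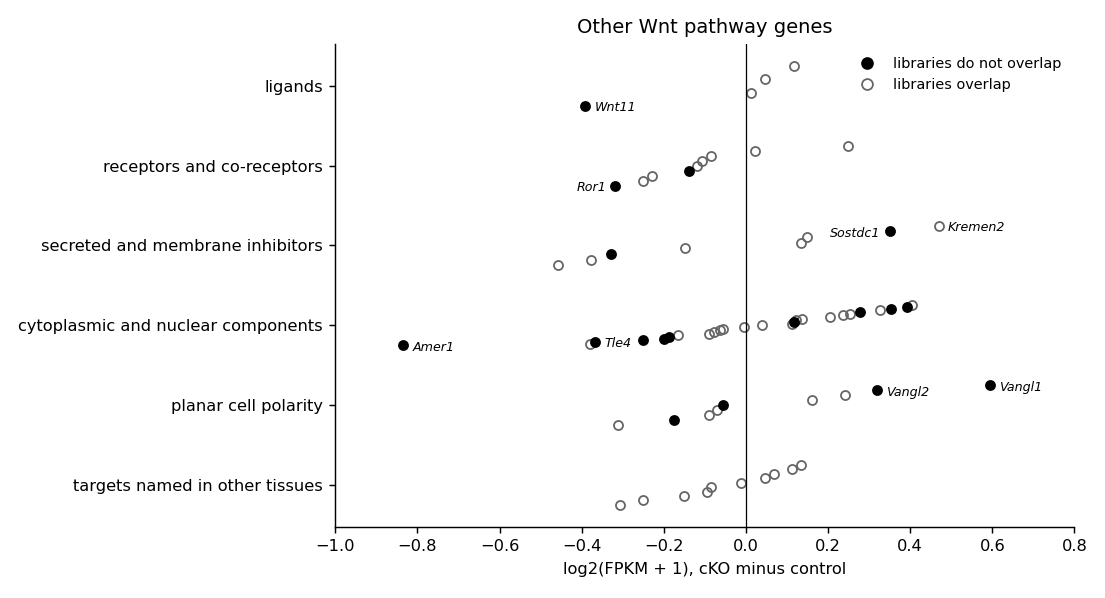
Difference in log2(FPKM + 1), cKO minus control, of the 63 other tested pathway genes by sublist, each point a gene and filled where the libraries of the groups do not overlap (a gene on more than 1 sublist appears in each). Amer1 (-0.83) and Vangl1 (0.59) are the points farthest from 0.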

How the data were processed

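Newborn mouse epidermal keratinocytes were profiled by RNA-seq in 2 cKO and 2 control libraries. The submitters' processing notes list fastp, HISAT2, HTSeq and GRCm38. The authors deposited 1 table of 110295 transcripts whose header names no unit. FPKM was inferred from the deposited values, because value times transcript length, over 1000, summed to between 1015550 and 1021998 per library; FPKM and RPKM cannot be told apart, and the kit as named does not give strand. The control columns are headed WT and were matched by group and replicate number. Implied depths came from low values of single-transcript genes of 300 to 1000 nt, within a tolerance of 0.1 reads.

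FPKM were summed per symbol, and the 13817 genes that reached 1 FPKM in 2 or more libraries were tested on log2(FPKM + 1), which understates differences of low genes, with limma 3.58.1 (mean-variance trend, genotype only, 2 residual degrees of freedom, Benjamini-Hochberg at 0.05). The fit was tested on simulated data. The replicate numbers were not taken as pairs, since the labels give only a number. Transcript classes, exons and sequences came from GENCODE M21, which held 98.04% of the transcripts. Alternatives covered scaling, pseudocount (0.1), filters, transcript class, transcript length, the replicate number as a block and leaving out each library. The members and lists were chosen with earlier results of these data known. Values by library are given for the 29 members with a mean of at least 5 FPKM, or of at least 1 FPKM without overlap, the other 8 by range, and Tcf7 among these 8 also by library; transcripts of at least 20% of a gene are drawn on where they add to it, and of other pathway lists the 2 genes with the smallest p among those with a mean of at least 1 FPKM and of marker lists the 2 most abundant are named; 1 marker list is not reported here. Scripts ran on R 4.3.3 and Python 3.11.15 with matplotlib 3.10.9, pandas 2.3.3 and numpy 2.4.6.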

Additional observations from a re-analysis of the deposited data

How the results depend on the processing

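No member passed under any of the 12 alternatives. With the replicate number as a block, the lowest adjusted p of a member was 0.0704 (limma, Wnt4), and 6 members had an unadjusted p under 0.05. How many of all tested genes reached that unadjusted level was not counted, so the 6 are not read as an excess. In the same fit 900 of all tested genes passed adjustment (6.51%). Of the other pathway genes 2 passed, Vangl1 (limma, adjusted p = 0.0229) and Amer1 (0.0335). Whether the numbers pair the libraries is not given in the labels; deviations from the group means correlated at 0.72 across genes between libraries of the same number. Leaving out 1 library gave 7 to 52 genes past the threshold; the spread of a group with a lone library then comes from its counterpart. The class medians then ranged from -0.21 to 0.13 for ligands, -0.13 to 0.19 for receptors, -0.12 to 0.033 for transducers (-0.132 with all libraries) and -0.37 to 0.042 for targets. With protein-coding transcripts only, 3 members were lower in cKO without overlap (Wnt16, Kremen1 and Znrf3) and 2 higher (Wnt7b and Fzd1). This and the count without overlap under other scalings were chosen after seeing the data. The share of all tested genes without overlap was not counted in these settings. The cause of these shifts was not tested.

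Of the 36 members tested, 14 kept their sign whichever library was left out, with these ranges on the log2 scale: Wnt4 0.068 to 0.75, Wnt7b 0.14 to 0.35, Wnt16 -0.51 to -0.45, Wls -0.19 to -0.15, Fzd1 0.32 to 0.58, Kremen1 -0.12 to -0.064, Ctnnb1 -0.12 to -0.013, Axin1 0.035 to 0.62, Gsk3b -0.34 to -0.053, Dvl1 -0.30 to -0.012, Tcf7 -0.68 to -0.031, Sp5 0.0071 to 0.55, Znrf3 -0.16 to -0.054 and Rnf43 -0.53 to -0.12. The share of all tested genes that kept their sign was not counted. The other 22 ranged as follows: Wnt3 -0.21 to 0.18, Wnt5a -0.18 to 0.13, Wnt6 -0.74 to 0.43, Wnt7a -0.74 to 0.11, Wnt10a -0.33 to 0.89, Wnt10b -0.57 to 0.10, Porcn -0.57 to 0.15, Fzd2 -0.045 to 0.74, Fzd3 -0.27 to 0.32, Fzd6 -0.13 to 0.26, Fzd7 -0.43 to 0.14, Fzd8 -0.26 to 0.40, Fzd10 -0.19 to 0.44, Lrp5 -0.26 to 0.22, Lrp6 -0.27 to 0.036, Apc -0.57 to 0.36, Dvl2 -0.47 to 0.13, Dvl3 -0.075 to 0.11, Tcf7l2 -0.45 to 0.083, Axin2 -0.12 to 0.20, Lef1 -0.82 to 0.042 and Nkd1 -0.31 to 0.075. Among the other alternatives, the sign turned with protein-coding transcripts only in Wnt5a (0.080), Lrp5 (0.012) and Dvl1 (0.12), with equal column sums in Fzd3 (-0.023), Dvl3 (-0.033) and Axin2 (-0.017), with median-ratio scaling in Dvl3 (-0.00044), and with the length trend removed in Lrp5 (0.032), Lrp6 (0.0064), Apc (0.054) and Dvl3 (-0.00083).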
